A study of Danio rerio with 8 samples.

Results

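The comparison was between EGFP positive cells sorted from zebrafish of the line Tg(fli1a:EGFP) and sequenced in 2 runs, run 1 and run 2. In this line a green fluorescent protein is under control of the fli1a promoter. Members were chosen by their sample labels and by no measured value: the sorted cells of both runs, which are 6 of the 8 sequenced samples and hold 4 of the 6 RNA samples. Run 1 held A_1, isolated with the RNAqueous micro kit, and Q_1, isolated with the RNeasy plus micro kit. Run 2 held 1 RNA sample per kit, A_2 and Q_2, each sequenced as technical replicates a and b, whose counts were summed. All 4 RNA samples came from 20000 sorted cells each, with an age of 3 days on the labels. The methods allow a wider range of ages and state that a shared pool of fish was used. No sample carried a treatment or a mutation, and the 2 whole embryos of the series were not used. There was 1 RNA sample for each run and kit. The 2 runs also differed in the number of cDNA amplification cycles, which was lower in run 1, and in the volume of RNA taken into cDNA synthesis. Each run held its own RNA samples. The study lists lower cDNA concentrations for run 1, and a lower RNA integrity score for A_2 than for A_1. Run, RNA sample with its sorted cells and RNA quality, cycles and input thus cannot be told apart.

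The fli1a promoter is active in endothelial cells, which line blood vessels, and also in cranial neural crest, cartilage and other mesenchyme, and the sort selected on fluorescence and light scatter alone. Cells that are dissociated and sorted are known to switch on immediate early genes of the AP-1 family and heat shock genes within a short time. Mitochondria carry a small genome of their own that encodes subunits of the respiratory chain, whereas most proteins of that chain, and those of the cytosolic ribosome, are encoded in the nucleus. The question was which genes of these kinds differed between the runs, and whether they did so with both kits.

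Levels are given as CPM, the counts of a gene scaled to a common library size, with TMM, a factor per RNA sample that sets aside differences in composition. The 6 samples held between 10763174 and 17915641 reads counted on genes. Of these, the 13 mitochondrially encoded protein genes took 2.64% in A_1 and 2.33% in Q_1, against 0.839% and 0.650% in the replicates of A_2 and 0.854% and 1.01% in those of Q_2, so every sample of run 1 lay above every sample of run 2. The 95% Wilson intervals of these shares and of those below extended at most 0.0291 percentage points to either side, which covers counting error only. Reads outside annotated genes made up 9.19% of all reads in A_1 and 10.1% in Q_1, and between 6.20% and 7.61% in the samples of run 2. Reads on several loci were fewer in run 1, at most 5.72% against at least 6.60% in run 2. The ambiguous share did not separate the runs, at 3.54% in A_1, 2.71% in Q_1 and 2.88% to 3.22% in run 2. Of the counts in both strand columns, the first column held 51.3% in A_1 and 51.0% in Q_1, and 49.8% to 49.9% in run 2.

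Of 19639 genes tested, 2149 (10.9%) had an adjusted p-value under 0.05 between runs in edgeR's quasi-likelihood test, which is two-sided, with the kit as covariate. Run 2 was higher for 833 of them (4.24%) and lower for 1316 (6.7%), and the median log2 fold change of run 2 over run 1 over all genes tested was 0.05. "Called" below means this threshold. The direction was shared by both kits for 2145 of the 2149 called genes and for 14069 of all 19639 genes tested. A call rests on the ratios of both kits together, so a shared direction among called genes is largely set by the call. It is no separate replication. Log2 fold changes are given with a standard error from the model of the 4 RNA samples, negative where run 2 was lower. With 1 RNA sample for each run and kit, that error rests on how far kit differences changed from run to run. This spread was shared fully across genes and may be technical, so the error is not the spread of the gene itself. It was 0.53 for FLI1, whose log2 ratios with RNAqueous and RNeasy were -0.66 and -0.62, and 0.55 for rps27l, at -3.19 and -0.48. With library totals in place of TMM the median of all genes was 0.40 and the split of the calls turned, with 992 of 1376 higher (72.1% of calls against 38.8%). Gene differences below are therefore to be read relative to the median of all genes. DESeq2 called 1006 of 16667 genes (6.04%), 325 of them higher (1.95%) and 681 lower (4.09%), and 994 of the 2149 genes were called by both tools. Among the called genes picked by the naming rule given at the end, DESeq2 did not call robo4, MATN3, crx, s100a10b, fcer1gl, SLC4A1 and tspo. Nor did it call HSF2, bag1, SLC7A5, nupr1b, TKT, baxb, BNIP3L and GINS2. Among called genes below the level of that rule, those that DESeq2 did not call included NR4A2, ANGPT2, lgals2a, bub1bb and grhl3. It gave no adjusted p-value to SOCS3, RAG1 and mgp.

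The difference between runs was larger with RNAqueous. Among the 9502 genes whose mean level reached 10 CPM, the median absolute log2 ratio of run 2 to run 1 was 0.77 with RNAqueous and 0.33 with RNeasy, which have 1 RNA sample per run each. The kits differed by 0.42 in run 1 and by 0.31 in run 2, and technical replicates a and b of the same RNA by 0.13 with RNAqueous and 0.11 with RNeasy. All models given here and below that leave out 1 RNA sample had no kit term, unlike the reported model. Their run difference thus also holds a kit difference, and their spread rests on the kits of the complete run. They tested 21132 genes without A_1, 19368 without A_2, 21180 without Q_1 and 19626 without Q_2. The number called over all genes differed widely between these models, as given next. Counts of a list in such a model, here and below, are to be read against that number and not as a trait of the list. Without A_1, 1270 of 21132 genes (6.01%) were called, 684 higher (3.24%) and 586 lower (2.77%) in run 2, and 983 of the 2149 genes were called there with the same direction. Without A_2 the number was 331, without Q_1 it was 4867 and without Q_2 it was 1491. Of the named genes, 101 were called in the model of all 4 RNA samples. DESeq2 called 86 of these, the model without A_1 71 and the model without A_2 36, and 31 were called under each alternative tried, as said below where it applies.

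Genes that overlap a neighbour on the opposite strand need a further reading. The column that ignores strand sets a read in such an overlap aside as ambiguous, whereas the sum of the strand columns counts it for both genes. The sum exceeded the column by more than 1.5 times in 731.0 of 19639 genes tested (3.72%) and in 156.0 of the 2149 called (7.26%), 133.0 of them lower in run 2, a limit set after the values were seen. For MIA, a secreted protein of cartilage in mammals, the sum was 5.33 times the column in A_1 and 5.07 times in Q_1, but 63.2 times in A_2a and 95.8 times in Q_2a. With the sum of the strand columns the drop of MIA in run 2 was -1.85 in place of -5.74 on the log2 scale, and it was not called (edgeR adjusted p = 0.052). Its size and its call thus depended on how reads in overlaps were treated. Counting was the same in both runs, but the excess of the sum over the column was larger in run 2. The fold change moved by more than 1.5 times in 13 named genes, MIA among them, each given below with both values. Of these, atp5meb, cox8a, coa6 and tnni4b.2 were still called from the sum, and FOS was called in neither. Of the 2149 genes, 1628.0 were called with the same direction from the sum as well.

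**Figure D1:**
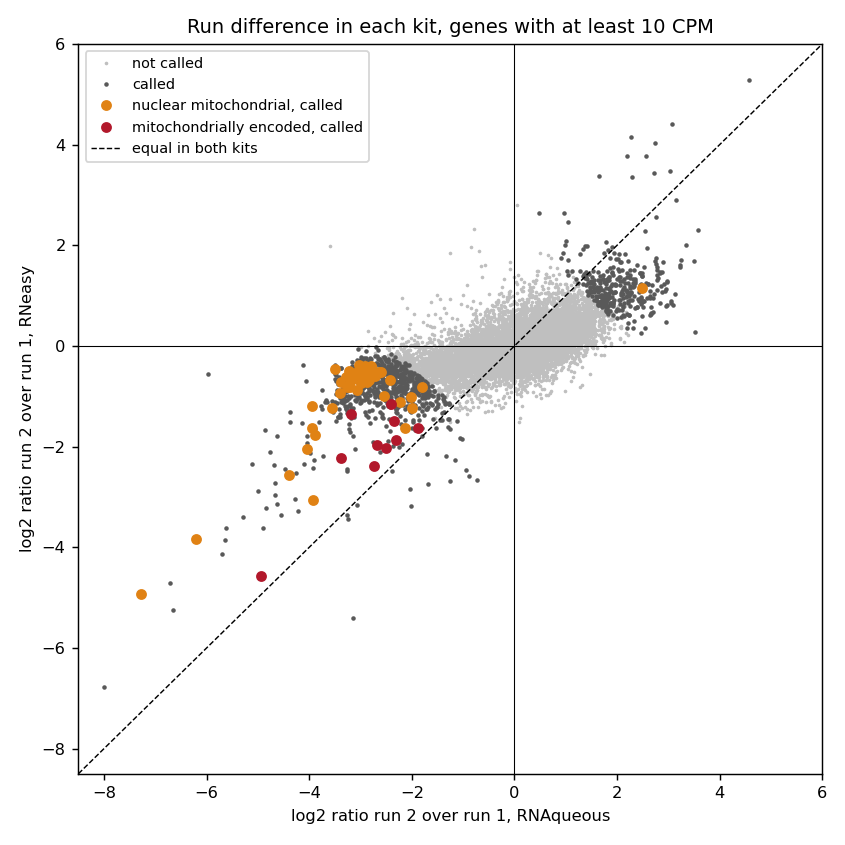
Log2 ratio of run 2 over run 1 for each gene whose mean level reached 10 CPM, with RNAqueous on the horizontal axis and RNeasy on the vertical axis; points are genes, grey where not called and dark where called, with called genes of the nuclear mitochondrial and the mitochondrially encoded lists in colour. The coloured genes are drawn at any level, also where their mean was below 10 CPM. Most called nuclear mitochondrial genes lie near -3 with RNAqueous and closer to 0 with RNeasy, above the dashed line of equal ratios, and the mitochondrially encoded genes lie closer to that line.

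Of the 13 protein genes of the mitochondrial genome, 10 were called lower in run 2 (76.9% against 6.7% of all genes) and none higher. All 13 were below 0 in both kits, against 6663 of all 19639 genes tested. Their median log2 fold change was -2.09 against 0.05 over all genes tested. The largest differences were in mt-atp8, MT-ND3, mt-nd4l and MT-ND6, which encode the smallest proteins of this set. Levels of mt-atp8 (ENSDARG00000063910), a subunit of ATP synthase, were 114 in A_1 and 96.7 in Q_1, 3.65 and 3.59 in the replicates of A_2, and 2.94 and 4.89 in those of Q_2, a log2 fold change of -4.79 ± 0.53 (adjusted p = 4.5e-16). Both samples of run 1 were more than 10 times as high as any sample of run 2. MT-ND3, a subunit of complex I, measured 93.8 in A_1 and 61.5 in Q_1, 10.4 and 6.74 in the replicates of A_2, and 10.3 and 15.7 in those of Q_2, a log2 fold change of -2.81 ± 0.48 (adjusted p = 1.1e-06). For mt-nd4l, also of complex I, the levels were 54.4 in A_1 and 42.1 in Q_1, 9.15 and 6.53 in the replicates of A_2, and 7.17 and 8.73 in those of Q_2, a log2 fold change of -2.57 ± 0.46 (adjusted p = 3.3e-06). In these genes too the runs did not overlap, and how many of all genes tested were separated so was not counted.

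Among the genes of higher level, MT-CYB (ENSDARG00000063924), the mitochondrial subunit of complex III, had 3416 in A_1 and 2904 in Q_1, 655 and 517 in the replicates of A_2, and 626 and 795 in those of Q_2, a log2 fold change of -2.27 ± 0.57 (adjusted p = 0.0025). MT-CO2, a subunit of complex IV, had 12209 in A_1 and 4816 in Q_1, 1506 and 1120.3 in the replicates of A_2, and 1712 and 2057 in those of Q_2, a log2 fold change of -2.26 ± 0.59 (adjusted p = 0.0041). MT-CO2 differed more between the kits of run 1, where A_1 was well above Q_1, than between those of run 2. MT-CO1, the catalytic subunit of complex IV, had 5072 in A_1 and 7718 in Q_1, 2312 and 1842 in the replicates of A_2, and 2478 and 2889 in those of Q_2, with a log2 fold change of -1.39 ± 0.55 (adjusted p = 0.086), and was not called, although its runs did not overlap. Neither were MT-ND2, with -1.43 ± 0.54 (adjusted p = 0.065), and MT-ND5, with -1.13 ± 0.51 (adjusted p = 0.14). The 4 other called genes were MT-ND1 (-2.09), MT-ATP6 (-1.92), MT-CO3 (-1.79) and MT-ND4 (-1.75), and MT-ND6 stood at -2.33. The reading frames of mt-atp8 and MT-ATP6, and those of mt-nd4l and MT-ND4, overlap on shared transcripts in vertebrates, so reads over both members of a pair can be set aside as ambiguous and the levels of the shorter member are uncertain.

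The median of the mitochondrially encoded list was -2.41 with RNAqueous and -1.63 with RNeasy, and 0.37 and -0.28 between technical replicates a and b in the same order. Without A_1, 11 of the 13 genes were called lower, without Q_1 also 11, without Q_2 6 and without A_2 3. DESeq2 called 12 lower, library totals 7 and the first draw of thinning to equal depth 4. Over all genes library totals called 384 of 19639 lower and that draw 191 of 17829. The genes mt-atp8, MT-ND3 and mt-nd4l were called under each alternative tried. The sum of the strand columns added no reads to mt-atp8 or mt-nd4l, so the alternatives do not settle the overlap of reading frames named above.

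**Figure D2:**
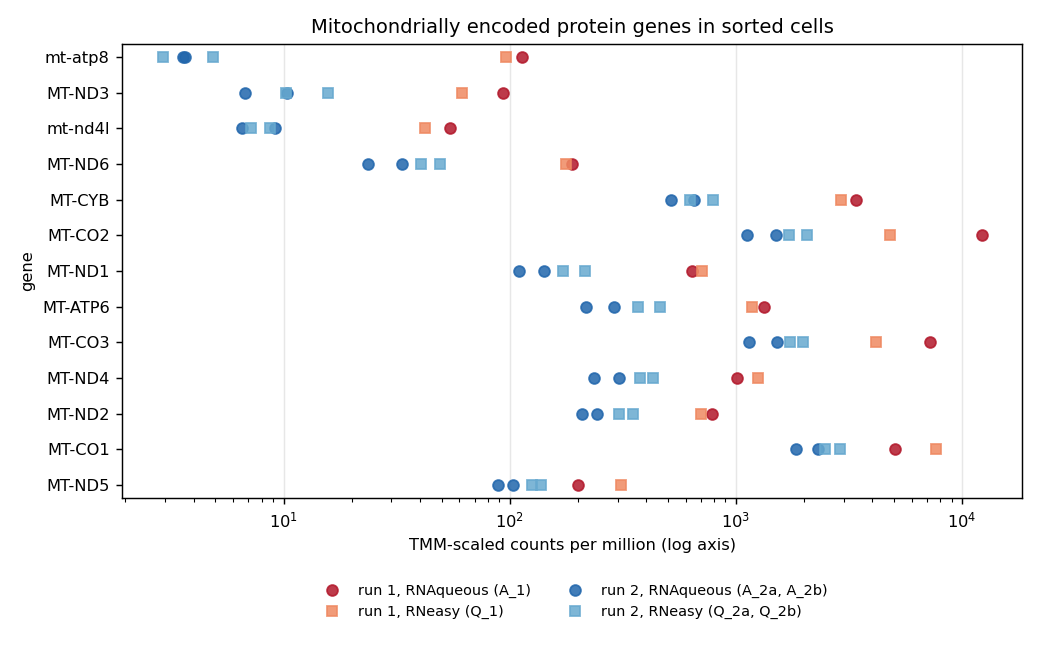
TMM-scaled CPM on a log axis for the 13 mitochondrially encoded protein genes in the 6 samples of sorted cells; each point is 1 sample, circles are RNAqueous and squares RNeasy, red and orange are run 1 and the blues run 2, and genes are ordered by their log2 fold change. Both points of run 1 lie to the right of all 4 points of run 2 for every gene, with the widest gap in mt-atp8 (114 and 96.7 CPM against 2.94 to 4.89 CPM). How many of all genes tested were separated so was not counted.

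Of 107 nuclear genes for mitochondrial proteins tested, which encode subunits of the respiratory chain and parts of the import and assembly machinery, 55 were called lower in run 2 (51.4% against 6.7% of all genes) and 1 higher, with a median log2 fold change of -1.55. Within kits the median was -2.47 with RNAqueous and -0.46 with RNeasy. With both kits 94 of the 107 genes were lower, against 6663 of all 19639 genes tested. A_1 was higher than Q_1 over the list, with a median log2 ratio of Q_1 to A_1 of -1.23, whereas Q_2 over A_2 was 0.64. Without A_1, 15 were called lower and none higher, without A_2 8, without Q_2 49 and without Q_1 72. The number also moved with scaling and depth, to 11 with library totals and 8 in the first draw of thinning to equal depth, with medians of -1.21 and -1.52. Over all genes 384 of 19639 were called lower with library totals and 191 of 17829 in that draw, with medians of 0.40 and 0.04. DESeq2 called 42 lower and the sum of the strand columns 36.

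NDUFA12, an accessory subunit of complex I, had the largest difference, with 69.1 in A_1 and 20.6 in Q_1, 0.341 and 0.359 in the replicates of A_2, and 0.412 and 0.728 in those of Q_2 and a log2 fold change of -6.33 ± 0.57 (adjusted p = 8.5e-25). UQCRB, a subunit of complex III, had 113 in A_1 and 30.7 in Q_1, 1.56 and 1.22 in the replicates of A_2, and 2.59 and 1.56 in those of Q_2 and a log2 fold change of -5.096 ± 0.54 (adjusted p = 1.4e-17). In both genes every sample of run 2 was below 3 CPM. NDUFB11, also of complex I, measured 102 and 40.4 in run 1 and 4.79 and 6.79 in run 2 (-3.49 ± 0.50 (adjusted p = 1.2e-09)). The ATP synthase subunit atp5meb measured 473 and 181 in run 1 and 28.7 and 43.8 in run 2 (-3.05 ± 0.57 (adjusted p = 1.1e-05)), and the complex IV subunit cox8a 601 and 217 in run 1 and 40.7 and 63.99 in run 2 (-2.82 ± 0.57 (adjusted p = 8.5e-05)). From the sum of the strand columns atp5meb stood at -2.09 and cox8a at -1.79. These 5 genes were called under each alternative tried, and their log2 ratios in the kits were apart, at -7.27 with RNAqueous and -4.93 with RNeasy for NDUFA12 and -3.88 with RNAqueous and -1.76 with RNeasy for cox8a. The member called higher was PPARGC1A, which encodes a coactivator of mitochondrial gene programmes in mammals, with 1.496 and 4.23 in run 1 and 8.904 and 9.55 in run 2 (1.83 ± 0.48 (adjusted p = 0.0047)), and which lies below the level set for named genes.

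All 78 cytosolic ribosomal protein genes tested had a log2 fold change below 0, against 9296 of all 19639 genes. Their median was -1.25, though 6 were called, 7.69% of the list against 6.7% of all genes called lower. RPS12 had 1884 and 895 in run 1 and 217 and 426 in run 2 (-2.09 ± 0.59 (adjusted p = 0.008)) and RPL11 652 and 433 in run 1 and 114 and 231 in run 2 (-1.71 ± 0.56 (adjusted p = 0.027)), and RPS12 stood at -1.36, not called, from the sum of the strand columns, which called 1 member. The others called were rps27.1, rps27.2, RPS28 and rplp2. The model without A_1, which had no kit term, gave rps27.2 a log2 fold change of 0.74. Within kits rps27.2 was lower in run 2, at -2.31 with RNAqueous and -1.02 with RNeasy. Its levels of 505 and 36.1 in run 1 and 102 and 17.8 in run 2 show that its kits differed more than its runs, and rps27.1 and rps27.2 are close copies whose reads may be split between them. The list median was -2.14 with RNAqueous and -0.41 with RNeasy, and 0.43 and -0.09 between a and b. Without A_1, 2 were called, without A_2 1, without Q_2 4 and without Q_1 62. The 15 reference genes, chosen as commonly used normalizers, had a median of -0.21 and none was called by edgeR or by DESeq2, with 2 at an unadjusted edgeR p under 0.05. Without Q_1, 1 was called lower.

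Stress-response genes did not move in 1 direction. Of 67 AP-1 and immediate early genes tested, 2 were called higher and 1 lower, or 4.48% against 10.9% of all genes, and the median was 0.22. With RNAqueous it was 0.33 and with RNeasy -0.01. CSRNP1, an immediate early nuclear protein, had 21.1 in A_1 and 22.02 in Q_1, 153 and 149 in the replicates of A_2, and 61.2 and 61.9 in those of Q_2 and a log2 fold change of 2.16 ± 0.49 (adjusted p = 6.7e-04). Run 2 was higher than run 1 in both kits, which the naming rule requires, and more so with RNAqueous. SOCS3, a cytokine-induced inhibitor of signalling, had no count in A_1 or Q_1 and 65 and 72 counts in A_2 and Q_2, at least 14.5-fold higher in run 2 than the floor of 3 counts over run 1. NR4A2, an immediate early nuclear receptor, was the member called lower, with 2.24 and 1.83 in run 1 and 0.348 and 0.607 in run 2. SOCS3 and NR4A2 lie below the level set for named genes. DESeq2 did not call NR4A2 (DESeq2 adjusted p = 0.15) and gave SOCS3 no adjusted p-value.

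The AP-1 genes FOS, JUN and ATF3 were not called, and were chosen for naming after their values were seen. They do not stand for the list, in which 40 of 67 genes tested had a log2 fold change above 0, against 10343 of all 19639. Scaled with TMM, the list summed to 27908 CPM in A_1, 29349 in Q_1, 28185 in A_2 and 29982 in Q_2. The likeness of these sums depends on the scaling. With library totals the median of the list was 0.56 against 0.40 over all genes. FOS (ENSDARG00000031683), a subunit of AP-1, had 4905 in A_1 and 5255 in Q_1, 1812 and 1458 in the replicates of A_2, and 1805 and 2091 in those of Q_2, a log2 fold change of -1.49 ± 0.56 (adjusted p = 0.06). Both samples of run 1 were above all of run 2, and DESeq2 gave an adjusted p of 0.016. From the sum of the strand columns the difference of FOS was -0.40, and its reads in overlaps were set aside more often in run 2, where the sum was 2.87 times the column in A_2a against 1.48 times in A_1. JUN, its dimer partner, had 2874 in A_1 and 4016 in Q_1, 2947 and 3556 in the replicates of A_2, and 4163 and 3879 in those of Q_2, a log2 fold change of 0.08 ± 0.54 (adjusted p = 0.96), and its runs overlapped. ATF3, a stress-induced factor of the same family, had 1071 and 485 in run 1 and 397 and 261 in run 2 (-1.16 ± 0.54 (adjusted p = 0.15)). Without A_2, 1 member was called higher and none lower, without A_1 and without Q_2 2 higher and none lower, and without Q_1 4 each way.

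Among 55 heat shock and chaperone genes, 7 were called lower and 2 higher, or 16.4% against 10.9% of all genes, and the median was 0.00. The lower genes were HSBP1, a binding partner of heat shock factor, SERPINH1, a collagen chaperone of the endoplasmic reticulum, hsp90aa1.1, which zebrafish express in developing muscle, the cochaperone bag1, and hspb9, hspb11 and CRYAB, small heat shock proteins of low level. HSBP1 measured 108 and 44.2 in run 1 and 9.25 and 17.8 in run 2 (-2.43 ± 0.50 (adjusted p = 9.4e-05)). SERPINH1 measured 164 in A_1 and 182 in Q_1, 33.3 and 25.8 in the replicates of A_2, and 48.3 and 62.96 in those of Q_2, a log2 fold change of -2.07 ± 0.50 (adjusted p = 0.0018). In both, run 2 was below run 1 with each kit, which the naming rule requires. hsp90aa1.1 measured 49.03 and 73.5 in run 1 and 23.5 and 20.6 in run 2 (-1.45 ± 0.45 (adjusted p = 0.021)) and bag1 36.3 and 19.8 in run 1 and 9.72 and 13.2 in run 2 (-1.25 ± 0.44 (adjusted p = 0.046)). HSF2, a heat shock transcription factor, was higher in run 2 with 24.9 and 20.5 in run 1 and 54.2 and 57.8 in run 2 (1.31 ± 0.45 (adjusted p = 0.039)), as was DNAJB5, at under 4 CPM in each RNA sample.

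The inducible hsp70 genes of the same list were not called, and were chosen for naming after their values were seen. hsp70l (ENSDARG00000055723) had 4133 in A_1 and 3434 in Q_1, 8785 and 9393 in the replicates of A_2, and 6913 and 6576 in those of Q_2, a log2 fold change of 1.05 ± 0.55 (adjusted p = 0.22). hsp70.3 (ENSDARG00000021924) had 1333 in A_1 and 1166 in Q_1, 3447 and 4003 in the replicates of A_2, and 2813 and 2614 in those of Q_2, a log2 fold change of 1.34 ± 0.55 (adjusted p = 0.099). All samples of run 2 were above both of run 1 in these 2 genes, which are close copies among which reads may be split, and DESeq2 called hsp70.3 with an adjusted p of 0.039. Of the genes of this list called by edgeR, DESeq2 did not call HSF2 (DESeq2 adjusted p = 0.062), bag1 (0.13) and DNAJB5 (0.16). Left-out RNA samples gave 2 higher and 4 lower without A_1, 2 higher and 13 lower without Q_1, 3 lower without A_2 and 5 lower without Q_2.

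Of 46 genes of the unfolded protein and amino acid response, 4 were called higher and 2 lower, or 13.04% against 10.9% of all genes, with a median of 0.10. ALDH1L2, a mitochondrial enzyme of folate metabolism, had 5.57 and 5.58 in run 1 and 34.1 and 13.2 in run 2 (1.94 ± 0.46 (adjusted p = 0.0011)). CREBRF, a regulator of the unfolded protein response, had 32.7 and 20.4 in run 1 and 94.98 and 48.6 in run 2 (1.397 ± 0.46 (adjusted p = 0.029)), and SLC7A5, an amino acid transporter, 21.03 and 15.96 in run 1 and 39.3 and 53.98 in run 2 (1.33 ± 0.45 (adjusted p = 0.034)). The fourth higher gene was atf5a, a transcription factor of the amino acid response, which is below the level set for named genes. The lower genes were nupr1a and nupr1b, stress-induced nuclear proteins, with 373 and 84.9 in run 1 and 43.6 and 58.1 in run 2 (-1.83 ± 0.55 (adjusted p = 0.016)) and 258 and 66.9 in run 1 and 32.7 and 54.3 in run 2 (-1.64 ± 0.54 (adjusted p = 0.029)). In both, A_1 stood at more than 3 times the level of Q_1, which lay above run 2 by less. HSPA5, the main chaperone of the endoplasmic reticulum, chosen after its values were seen, had 1172 and 577 in run 1 and 2424 and 1066 in run 2 and its runs overlapped across kits (0.97 ± 0.55 (adjusted p = 0.26)). Without A_1, 4 members were called higher and none lower, without A_2 none was called, without Q_1 7 were higher and 5 lower, and without Q_2 2 each way.

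Oxidative stress genes gave 4 called lower and none higher of 41 tested, or 9.76% against 6.7% of all genes called lower. With library totals 1 was called lower, as were 384 of all 19639 genes tested. The median was -0.65, at -1.23 with RNAqueous and -0.24 with RNeasy. TXN, thioredoxin, had 2049.9 in A_1 and 803 in Q_1, 296 and 236 in the replicates of A_2, and 381 and 421 in those of Q_2, a log2 fold change of -1.96 ± 0.58 (adjusted p = 0.014). The iron storage gene fthl31, a ferritin heavy chain, had 16.9 and 11.7 in run 1 and 1.798 and 3.17 in run 2 (-2.55 ± 0.47 (adjusted p = 7.0e-06)) and was called under each alternative tried. Also lower were txnb (-1.71), another thioredoxin, and TKT (-1.34), transketolase of the pentose phosphate pathway. Without A_1 or without A_2 1 gene was called lower, without Q_2 3, and without Q_1 19 lower and 2 higher. In the p53 and DNA damage list, 2 of 44 were called lower, rps27l (345 and 80.4 in run 1 and 37.7 and 57.6 in run 2, -1.84 ± 0.55 (adjusted p = 0.016)) and the cell death gene baxb (27.18 and 20.6 in run 1 and 6.73 and 10.8 in run 2, -1.47 ± 0.44 (adjusted p = 0.014)). Of 46 hypoxia genes, vhl, which targets hypoxia-inducible factor for degradation, was called lower (-1.68 ± 0.45 (adjusted p = 0.0047)) and BNIP3L, a mitophagy receptor, higher (1.32 ± 0.44 (adjusted p = 0.032)). For vhl the sum of the strand columns gave -0.99, not called. The share called lower was 4.55% of the p53 list, against 6.7% of all genes. In the hypoxia list 4.35% were called, against 10.9% of all genes. Neither list held a call without A_2. Without Q_1 the p53 list held 5 lower and 2 higher and the hypoxia list 4 lower and 2 higher. Without A_1, 1 gene of the p53 list was called lower, and in the hypoxia list 2 higher and 1 lower. Without Q_2 the hypoxia list held 1 lower and none higher.

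**Figure D3:**
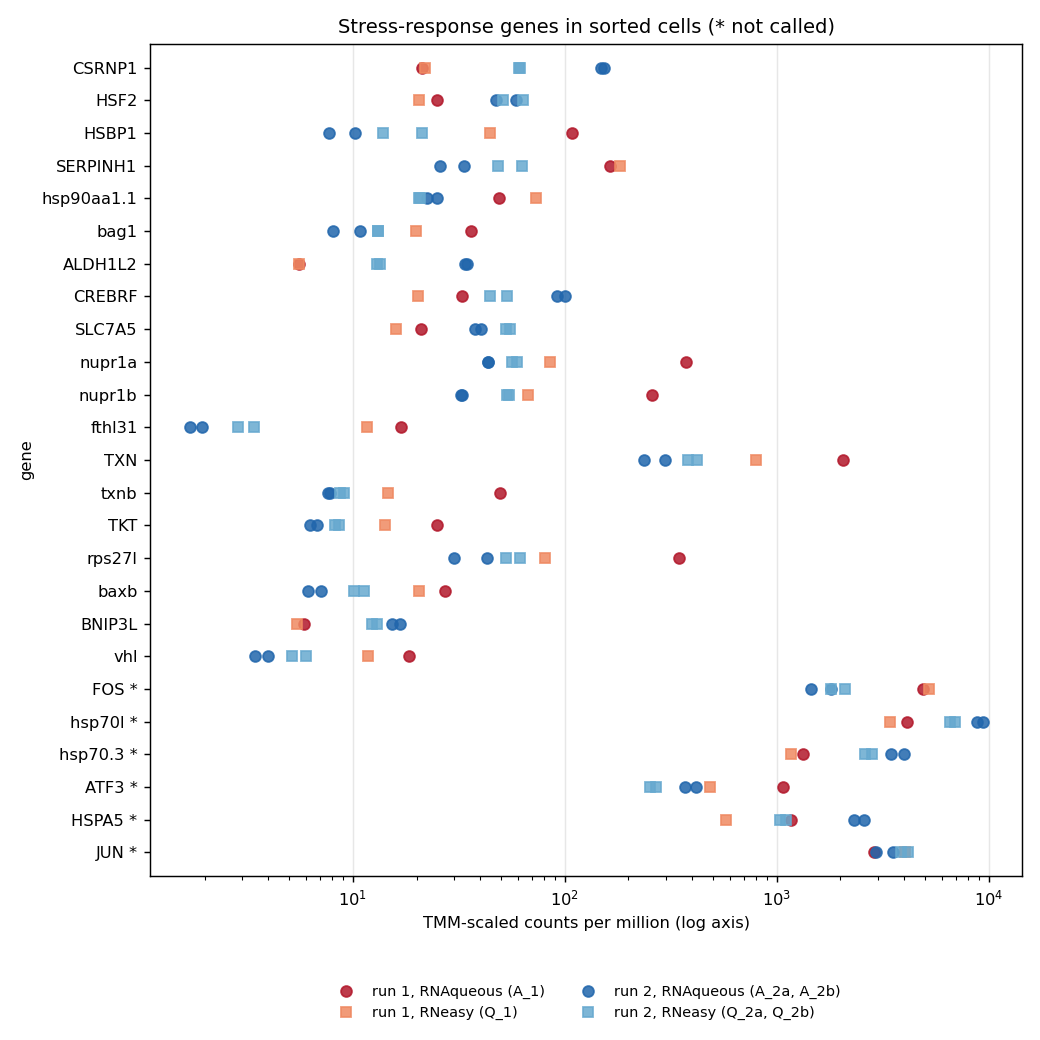
TMM-scaled CPM on a log axis for the stress-response genes named by rule, and for 6 genes marked with an asterisk that were not called and were chosen after their values were seen; each point is 1 of the 6 samples, circles are RNAqueous and squares RNeasy, red and orange are run 1 and the blues run 2. CSRNP1 and HSF2 lie higher in run 2 and HSBP1, TXN and nupr1a lower, while the points of JUN overlap between runs.

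The markers that define the cell types of the gate and of other cells, 16 in all, held no call between runs by edgeR or DESeq2, and 0 had an unadjusted edgeR p under 0.05. FLI1 (ENSDARG00000054632), the gene whose promoter drives the reporter, had 445 in A_1 and 412 in Q_1, 283 and 278 in the replicates of A_2, and 249 and 284 in those of Q_2, a log2 fold change of -0.64 ± 0.53 (adjusted p = 0.48). The endothelial receptor kdrl had 39.5 and 48.1 in run 1 and 46.5 and 28.1 in run 2 (-0.27 ± 0.45 (adjusted p = 0.77)) and the endothelial cadherin cdh5 35.2 and 35.5 in run 1 and 21.2 and 20.3 in run 2 (-0.77 ± 0.43 (adjusted p = 0.26)), so endothelial markers were present in each RNA sample. The cartilage collagen COL2A1 was far higher, with 7140.2 and 17874 in run 1 and 24674 and 20342 in run 2 for ENSDARG00000069093 (0.99 ± 0.57 (adjusted p = 0.28)) and 2565 and 3759 in run 1 and 5482 and 4473 in run 2 for ENSDARG00000011407 (0.67 ± 0.55 (adjusted p = 0.48)). A_1 was the lowest of the 4 in both copies. SOX9, a cartilage regulator, had 599 and 270.4 in run 1 and 523 and 685 in run 2 for ENSDARG00000003293 and 53.6 and 44.7 in run 1 and 43.7 and 52.5 in run 2 for ENSDARG00000043923. The mesenchymal factors PRRX1 (ENSDARG00000033971, 241 and 276 in run 1 and 235 and 286 in run 2) and twist1a (592 and 318 in run 1 and 209.5 and 288 in run 2) did not pass either. Markers of other cells were likewise not called, as for the leukocyte antigen ptprc (8.64 and 9.33 in run 1 and 12.2 and 12.97 in run 2), skeletal actin ACTA1 (ENSDARG00000055618, 507 and 698 in run 1 and 308 and 462 in run 2), the neuronal gene ELAVL3 (55.5 and 129 in run 1 and 75.4 and 105 in run 2) and the epithelial genes krt4 (788 and 989 in run 1 and 2136 and 1622 in run 2, 1.08 ± 0.55 (adjusted p = 0.21)) and epcam (207 and 102 in run 1 and 143 and 143 in run 2). In bulk RNA, fewer cells of a type and less RNA per cell cannot be told apart.

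**Figure D4:**
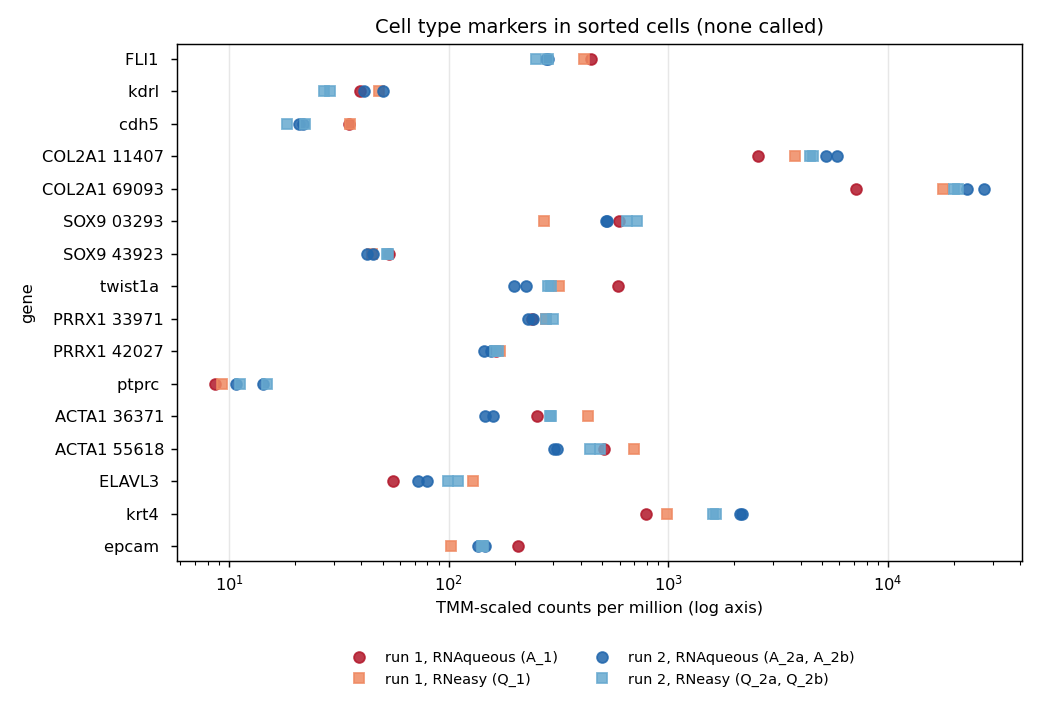
TMM-scaled CPM on a log axis for defining markers of endothelial cells, cartilage, mesenchyme, leukocytes, muscle, neurons and epithelium in the 6 samples; each point is 1 sample, circles are RNAqueous and squares RNeasy, red and orange are run 1 and the blues run 2, and digits after a symbol are the end of the Ensembl identifier where 2 copies are shown. No marker was called; FLI1 and cdh5 lie lower in run 2 and krt4 higher, whereas ELAVL3 overlaps.

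Within the endothelial list, 4 of 49 genes tested were called higher and 2 lower, or 12.2% against 10.9% of all genes, a share near that of all genes, with a median of 0.20. The genes higher in run 2 were KDR, a receptor of vascular endothelial growth factor (4.903 and 4.23 in run 1 and 15.8 and 11.9 in run 2, 1.595 ± 0.45 (adjusted p = 0.0083)), the receptor tyrosine kinase TIE1 (12.1 and 12.8 in run 1 and 50.5 and 24.3 in run 2, 1.497 ± 0.45 (adjusted p = 0.015)), the venous marker ephb4a (14.1 and 38.9 in run 1 and 89.5 and 60.8 in run 2, 1.64 ± 0.49 (adjusted p = 0.014)) and the guidance receptor robo4 (3.08 and 6.15 in run 1 and 13.4 and 10.7 in run 2, 1.44 ± 0.46 (adjusted p = 0.023)). MYCT1, an endothelial target of the factor MYC, was lower (18.5 and 13.5 in run 1 and 3.45 and 4.42 in run 2, -2.02 ± 0.45 (adjusted p = 4.2e-04)), as was ANGPT2, a ligand of the TIE2 receptor, below the level set for named genes. With the strand columns summed, MYCT1 stood at -1.01 and was not called. The summed level of the list, scaled with TMM, was nearly the same in the 4 RNA samples. It was 2508 CPM in A_1, 2534 in Q_1, 2455 in A_2 and 2415 in Q_2. On that scale all genes tested summed to 1225560 CPM in A_1, 1033930 in Q_1, 848046 in A_2 and 930580 in Q_2. The likeness of the list sums thus depends on the scaling. With library totals the median of the list was 0.54 against 0.40 over all genes. Without A_2 no member was called, without A_1 2 were higher and 1 lower, without Q_1 6 were higher and 4 lower, and without Q_2 3 were higher and 2 lower.

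Among skeletal lineages, 10.7% of cartilage genes were called, against 10.9% of all genes. The share called lower was 6.25% of bone genes and 5.41% of fibroblast and matrix genes, against 6.7% of all genes. In the cranial mesenchyme and neural crest list 2.56% were called higher, against 4.24% of all genes. Of 28 cartilage genes, acanb, which encodes the proteoglycan aggrecan (16.4 and 27.9 in run 1 and 114 and 69.5 in run 2, 2.05 ± 0.49 (adjusted p = 0.0012)), and the matrix protein MATN3 (17.7 and 4.999 in run 1 and 35.8 and 21.5 in run 2, 1.54 ± 0.45 (adjusted p = 0.012)) were higher, and OTOS (1832 and 478 in run 1 and 189.9 and 270.3 in run 2, -2.05 ± 0.59 (adjusted p = 0.011)) was lower. Scaled with TMM, the cartilage list summed to 37171 CPM in A_1, 49226 in Q_1, 65302 in A_2 and 57020 in Q_2, with A_1 the lowest. Of 16 bone genes, IFITM5, a membrane protein of osteoblasts, was lower (705 and 258 in run 1 and 107 and 165 in run 2, -1.68 ± 0.56 (adjusted p = 0.032)), and the list held no call without A_1, without A_2 or without Q_2, and 1 each way without Q_1. In the cranial mesenchyme and neural crest list, 1 of 39 was called, PDGFRB, a receptor of platelet-derived growth factor, with 8.64 in A_1 and 11.7 in Q_1, 59.9 and 60.27 in the replicates of A_2, and 37.6 and 32.7 in those of Q_2, higher in run 2 by 2.18 ± 0.46 (adjusted p = 2.0e-04) and called under each alternative tried. The elastic fibre protein mfap5 (62.1 and 32.98 in run 1 and 8.498 and 12.3 in run 2, -2.15 ± 0.46 (adjusted p = 2.6e-04)) and mgp, an inhibitor of calcification at under 3 CPM in each RNA sample, were the 2 of 37 fibroblast and matrix genes called, both lower. The cartilage list held no call without A_2, 3 higher and none lower without A_1, and 1 higher and 5 lower without Q_1. The cranial list held 3 each way without Q_1, and the fibroblast list none without A_2, 1 lower without A_1 and without Q_2, and 3 higher and 4 lower without Q_1.

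Smooth muscle and pericyte genes gave 1 of 15 called higher and 3 lower, with a median of -0.87. The share called lower was 20% against 6.7% of all genes, and the share called higher 6.67% against 4.24%. With library totals 1 member was called lower, and 384 of all 19639 genes tested were. NOTCH3, a receptor of mural cells, was higher (11.1 and 18.6 in run 1 and 58.99 and 31.96 in run 2, 1.59 ± 0.46 (adjusted p = 0.011)). The contractile gene TAGLN (55.2 and 16.2 in run 1 and 5.89 and 10.04 in run 2, -1.96 ± 0.48 (adjusted p = 0.0016)) and the pericyte regulator RGS5 (1055 and 295 in run 1 and 131 and 200.04 in run 2, -1.78 ± 0.58 (adjusted p = 0.028)) were lower, as was LMOD1, and A_1 held the highest level of both named genes by more than 3 times over Q_1. Without A_1, 1 member was called higher and none lower, without A_2 none was called, and without Q_1 1 was higher and 6 lower. In the pigment cell list 2 of 24 were called, both higher, namely aox5 (3.16 and 5.19 in run 1 and 24.4 and 12.3 in run 2, 2.09 ± 0.46 (adjusted p = 4.6e-04)) and XDH, enzymes of pteridine and purine metabolism used by yellow pigment cells. Summed over the strand columns, aox5 stood at 1.28 and was not called. The share of the pigment cell list called higher was 8.33%, against 4.24% of all genes. The list held none without A_2, 1 without Q_2, 7 higher without Q_1, and 3 higher and 1 lower without A_1.

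Of 43 skeletal and cardiac muscle genes tested, 9 were called lower in run 2 (20.9% against 6.7% of all genes), 1 was called higher and 33 were not called. With library totals 6 were called lower, against 384 of all 19639 genes, and the median was -0.25 against 0.40 over all genes. With TMM the median was -0.62, at -0.73 with RNAqueous and -0.42 with RNeasy. Among the lower genes were 3 parvalbumins, calcium buffers of fast muscle. pvalb4 had 409 in A_1 and 257 in Q_1, 17.1 and 11.6 in the replicates of A_2, and 55.6 and 62.96 in those of Q_2, a log2 fold change of -3.44 ± 0.59 (adjusted p = 1.1e-06). For pvalb2 the levels were 7379.8 in A_1 and 3889 in Q_1, 734 and 590.5 in the replicates of A_2, and 1411 and 1513 in those of Q_2, a log2 fold change of -2.43 ± 0.60 (adjusted p = 0.002). Both samples of run 1 were above all of run 2, and A_2 was below Q_2 by more than 2 times. TNNC1, troponin C, had 160.5 and 151 in run 1 and 29.5 and 78.01 in run 2 (-1.697 ± 0.51 (adjusted p = 0.015)) and pvalb1 5342 and 2778 in run 1 and 767 and 1679 in run 2 (-1.76 ± 0.59 (adjusted p = 0.032)). Genes of the heart had few counts in run 2, as cmlc1, a cardiac myosin light chain, had 256 counts in A_1 and 43 in Q_1 against 0 in A_2 and 3 in Q_2. MYL7, another, had 284 and 34 against 8 and 5. MYH7, a cardiac myosin heavy chain, had 55 and 13 counts in run 1 against 9 and 1. The myogenic factor MYOG and TNNI1 were also lower, at under 10 CPM in each RNA sample. The member called higher was the fast myosin myhz1.3 (62.9 and 27.8 in run 1 and 265 and 57.5 in run 2, 1.56 ± 0.50 (adjusted p = 0.024)), a member of a family of near-identical copies. Without A_1 7 were called lower, without A_2 3 and none higher, without Q_2 8 and without Q_1 14.

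Neuronal and glial genes gave 5 of 48 called lower and none higher, or 10.4% against 6.7% of all genes called lower. The median was -0.41, and with library totals it was -0.08 with 2 called. her4.1, a target of Notch signalling in neural progenitors, had 136 in A_1 and 82.8 in Q_1, 15.6 and 11.8 in the replicates of A_2, and 12.8 and 16.3 in those of Q_2, a log2 fold change of -2.89 ± 0.50 (adjusted p = 1.1e-06), and was called under each alternative tried. FABP7, a lipid-binding protein of radial glia, had 1269 and 566 in run 1 and 158 and 329 in run 2 (-1.896 ± 0.58 (adjusted p = 0.018)). The synaptic gene sncb had 156 and 79.03 in run 1 and 26.6 and 39.2 in run 2 (-1.78 ± 0.50 (adjusted p = 0.0078)) and GNG3, a G protein subunit, 91.7 and 75.7 in run 1 and 21.95 and 32.9 in run 2 (-1.63 ± 0.47 (adjusted p = 0.011)). CPLX2, a complexin of low level, was the fifth. Without A_2 1 was called, without Q_1 15, and without A_1 or Q_2 6. Photoreceptor and lens genes gave 6 of 32 lower (18.75% against 6.7% of all genes) and none higher, with a median of -0.21, and with library totals 2 lower and 1 higher. Over all 19639 genes library totals called 384 lower and 992 higher. The lens crystallin crygm2d10 had 16.3 in A_1 and 67.01 in Q_1, 4.58 and 3.09 in the replicates of A_2, and 7.76 and 6.92 in those of Q_2, a log2 fold change of -2.63 ± 0.46 (adjusted p = 2.6e-06), and held under each alternative tried. It was highest in Q_1, as was the crystallin CRYBA2 (18.5 and 43.9 in run 1 and 7.25 and 9.63 in run 2, -1.77 ± 0.44 (adjusted p = 0.0024)), whereas both copies of the cone transducin gene GNGT2 were highest in A_1. GNGT2 measured 79.7 and 15.3 in run 1 and 4.495 and 11.8 in run 2 for ENSDARG00000010680 and 127 and 35.9 in run 1 and 11.2 and 27.5 in run 2 for ENSDARG00000103543. The photoreceptor factor crx was lower too (47.5 and 54.03 in run 1 and 16.8 and 24.3 in run 2, -1.33 ± 0.45 (adjusted p = 0.033)), as was GUK1. From the sum of the strand columns crx stood at -0.64 and CRYBA2 at -1.16, neither called. Without A_1 9 were called lower and 1 higher, without A_2 2 lower and 1 higher, without Q_1 7 lower and 3 higher, and without Q_2 7 lower.

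Liver and gut genes gave 7 of 32 called lower (21.9% against 6.7% of all genes) and none higher, with a median of -0.62. The apolipoprotein apoa2 had 93.7 in A_1 and 36.6 in Q_1, 14.6 and 17.3 in the replicates of A_2, and 14.6 and 12.5 in those of Q_2, a log2 fold change of -2.01 ± 0.47 (adjusted p = 8.7e-04), and was called under each alternative tried. The other 6 were fabp10a, apoc1, uox, FABP2 and both copies of RBP2, proteins of fat and retinol transport and of purine breakdown, and none of them reached 10 CPM in both samples of run 1. A_1 had the highest level of each. Without A_1 3 were called, without A_2 4 and without Q_1 15. Of 9 pancreatic genes tested of 23, 2 were called each way, or 44.4% of this short list against 10.9% of all genes. The endocrine genes GCG, glucagon (39.1 and 1.35 in run 1 and 0.522 and 0.883 in run 2), and sst1.2, somatostatin (3.49 and 1.92 in run 1 and 0.261 and 0.745 in run 2), were lower, and GCG rested on A_1. The digestive proteases prss1 (2.33 and 0.865 in run 1 and 5.16 and 13.7 in run 2) and prss59.2 were higher. prss59.2 had no count in run 1 and 57 counts in A_2 and 655 in Q_2, at least 73.8-fold higher than the floor of 3 counts over run 1, and its level in Q_2 (18.1 CPM) was far from that in A_2 (1.65 CPM). Trypsinogen genes of this family are near-identical, so their counts are uncertain. DESeq2 called prss1 (DESeq2 adjusted p = 0.019) but not prss59.2 (0.23), GCG (0.30) or sst1.2 (0.067). Without A_1 3 pancreatic genes were called higher and none lower, without Q_1 3 each way, without A_2 3 higher and 2 lower, and without Q_2 1 higher and 3 lower.

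In blood and skin lists the share called was 10% for leukocyte, 13.0% for erythroid and thrombocyte and 6.82% for epidermal and epithelial genes. Over all genes it was 10.9%. Of 40 leukocyte genes 3 were lower, s100a10b (177 and 52.8 in run 1 and 27.6 and 41.2 in run 2, -1.52 ± 0.51 (adjusted p = 0.033)), the Fc receptor chain fcer1gl (54.1 and 20.8 in run 1 and 12.3 and 14.6 in run 2, -1.33 ± 0.45 (adjusted p = 0.036)) and lgals2a, and RAG1, a recombinase of lymphocytes, was higher with 3 and 1 counts in A_1 and Q_1 against 48 and 49 in A_2 and Q_2. Of 23 erythroid and thrombocyte genes, hbae3, an embryonic alpha globin, was lower (6709.9 in A_1 and 2386 in Q_1, 967 and 791 in the replicates of A_2, and 1648 and 1711 in those of Q_2, -1.705 ± 0.60 (adjusted p = 0.044)), as was tspo (-1.34 ± 0.46 (adjusted p = 0.038)), and the red cell anion exchanger SLC4A1 was higher (19.6 and 28.5 in run 1 and 73.03 and 51.6 in run 2, 1.38 ± 0.46 (adjusted p = 0.032)). A_1 held the highest globin level. Neither list held a call without A_2, and without A_1 the leukocyte list held 2 higher and none lower and the erythroid list none. Without Q_1 they held 3 higher and 8 lower, and 1 higher and 5 lower. Without Q_2 the leukocyte list held 3 lower and none higher. Epidermal and epithelial genes gave 2 of 44 higher, the basal keratin krt5 (27.9 and 18.7 in run 1 and 74.7 and 74.5 in run 2, 1.704 ± 0.47 (adjusted p = 0.0064)) and grhl3, an epidermal factor, and 1 lower, AGR2 of secretory cells (40.9 and 13.7 in run 1 and 6.38 and 7.04 in run 2, -1.83 ± 0.45 (adjusted p = 0.0021)). They gave 1 lower without A_2, 3 higher without A_1, and 4 higher and 9 lower without Q_1. The cell cycle list gave 4 of 51 lower and 1 higher, or 9.80% against 10.9% of all genes, with a median of 0.09. The 4 were BIRC5, a subunit of the chromosomal passenger complex (91.004 and 27.7 in run 1 and 9.02 and 12.9 in run 2, -2.22 ± 0.48 (adjusted p = 3.3e-04)), the kinase subunits CKS1B (-1.68 ± 0.50 (adjusted p = 0.013)) and cks2 (-1.65 ± 0.46 (adjusted p = 0.008)), and GINS2 of the replication helicase (-1.56 ± 0.46 (adjusted p = 0.013)), and the higher gene was bub1bb of the spindle checkpoint. It gave 1 lower without A_2, 3 lower without A_1, 4 lower without Q_2, and 3 higher and 10 lower without Q_1.

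**Figure D5:**
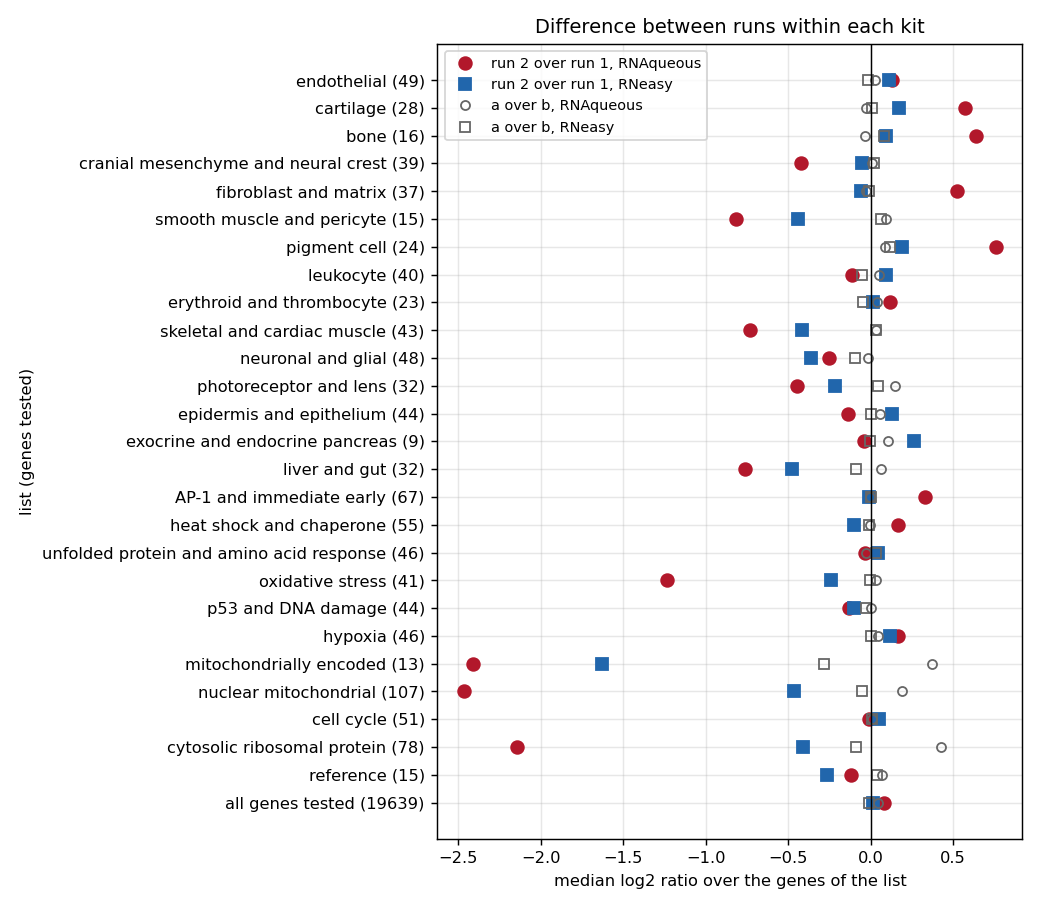
Median log2 ratio of run 2 over run 1 for the genes tested of each of 26 lists and of all genes, with RNAqueous (filled circles) and RNeasy (filled squares), and of technical replicate a over b of run 2 (open symbols); the number of genes tested is in brackets. The mitochondrially encoded list lies at -2.41 and -1.63 in the 2 kits, whereas the nuclear mitochondrial and ribosomal lists lie far below 0 with RNAqueous (-2.47 and -2.14) and nearer to it with RNeasy (-0.46 and -0.41).

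Of called genes with at least 10 CPM in both RNA samples of the higher run and the same sign in both kits, the 12 of largest change in each direction were named, whatever their list. Larger log2 fold changes were fitted for genes of lower level, such as SOCS3 above. P4HB, a protein disulfide isomerase that is also a subunit of collagen prolyl hydroxylase, had 128 in A_1 and 101 in Q_1, 834 and 866 in the replicates of A_2, and 984 and 1199.97 in those of Q_2, a log2 fold change of 3.09 ± 0.58 (adjusted p = 1.2e-05). It was the most abundant of the 12 increased genes, all of which were called under each alternative tried except actn4. si:dkey-153m14.1 (ENSDARG00000096403) rose most among these 12, with 1.75 and 2.404 in run 1 and 43.6 and 96.9 in run 2 (4.99 ± 0.54 (adjusted p = 4.5e-17)), and no role is given to it here. Others were PPP1R9B, a scaffold of actin and protein phosphatase (3.33 ± 0.52 (adjusted p = 4.2e-08)), the repressor HIC2 (2.99 ± 0.48 (adjusted p = 1.1e-07)), SHOC2, a scaffold of RAS signalling (7.31 and 8.75 in run 1 and 75.7 and 35.7 in run 2, 2.699 ± 0.48 (adjusted p = 2.7e-06)), SPRY1, a feedback inhibitor of receptor tyrosine kinases (2.64 ± 0.47 (adjusted p = 3.7e-06)), the ephrin ligand EFNB1 (2.53 ± 0.48 (adjusted p = 2.1e-05)), and actn4, an actin crosslinker (7.48 and 6.54 in run 1 and 71.03 and 20.1 in run 2, 2.44 ± 0.47 (adjusted p = 3.2e-05)). The remaining genes were cmn, a gene of the notochord sheath (3.66 and 0.673 in run 1 and 21.4 and 10.4 in run 2), the carboxypeptidase CPZ (2.86), LMBR1L (2.69) and ABI1, an adaptor of actin assembly (2.599). Without A_2, actn4 stood at 1.53 and was not called.

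In the other direction, ID1, an inhibitor of basic helix-loop-helix factors and a target of BMP signalling, had 2504 in A_1 and 1553 in Q_1, 116 and 91.99 in the replicates of A_2, and 127 and 173 in those of Q_2, a log2 fold change of -3.96 ± 0.61 (adjusted p = 2.9e-08). Run 1 was more than 8 times as high as any sample of run 2. MIA had 764 in A_1 and 177 in Q_1, 8.08 and 5.74 in the replicates of A_2, and 6.23 and 7.02 in those of Q_2, a log2 fold change of -5.74 ± 0.64 (adjusted p = 6.0e-16). Within kits the ratio was -6.72 with RNAqueous and -4.71 with RNeasy. The value for ID1 was -1.16 from the sum of the strand columns and was not called there, and neither was MIA at -1.85. si:dkey-90l23.1 (ENSDARG00000092057) had the largest fall among the 12 decreased genes, with 55.4 and 29.1 in run 1 and 0.116 and 0.166 in run 2 (-8.102 ± 0.63 (adjusted p = 1.4e-33)). The linker histone h1m (-5.501 ± 0.57 (adjusted p = 1.3e-18)), the complex IV assembly factor coa6 (-4.93 ± 0.52 (adjusted p = 7.3e-18)), the dynein light chain DYNLRB1 (150.4 and 50.1 in run 1 and 3.74 and 4.66 in run 2, -4.37 ± 0.53 (adjusted p = 2.1e-13)), the ferritin fthl28 (-4.36 ± 0.50 (adjusted p = 2.6e-15)), the selenoprotein selenoh (-4.09 ± 0.50 (adjusted p = 1.3e-13)) and the troponin tnni4b.2 (-3.84 ± 0.49 (adjusted p = 2.5e-12)) were lower as well, each below 5 CPM in both RNA samples of run 2. Summed over both strands, coa6 stood at -2.44 and tnni4b.2 at -2.27, both called. NDUFA12, UQCRB and mt-atp8, described above, complete the 12. Transcript length was not analysed here.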

How the data were processed

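RNA sequencing of the sorted cells was used, with the cDNA made by SMART-seq v4 and tagmented with Nextera XT. The authors aligned reads with STAR (GRCz10 per the labels) and deposited raw counts of reads per Ensembl gene, which were taken from the column that ignores strand. Rows that name no gene stayed out of the tests. Gene symbols came from a reference table that covers 27000 of 35117 identifiers, and often holds the symbol of the human orthologue, in capitals. One sample title numbers Q_1 as 2, whereas its source label says sample 1, and it was kept in run 1. Coordinates and sequences were not used here.

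Counts of technical replicates were summed. Runs were compared with edgeR version 4.0.16 in R version 4.3.3 (quasi-likelihood test, run and kit as terms, TMM, default filter on low counts, Benjamini-Hochberg adjustment at 0.05), with 1 residual degree of freedom and a biological coefficient of variation of 31.8%. The spread was shared fully across genes. Each standard error was the absolute log2 fold change over the square root of F. Log2 ratios within a kit used a pseudocount of 0.1 CPM and were not tested. The floor of 3 counts was 0.167 to 0.279 CPM per sample. With no molecular identifiers in the reads, such floors and the Wilson intervals reflect counting error alone. The study states a shared pool of fish for the sorted samples, and nothing says that the RNA samples came from separate animals. The p-values thus measure the spread between these samples, shared across genes, and not the spread between animals.

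The 26 gene lists, matched by symbol to 1107 genes, and the comparison itself were chosen with earlier results of these data known. Named genes were, per list and direction, up to 5 called genes of the largest change with the same sign in both kits and at least 10 CPM in both RNA samples of the higher run, the defining markers, the mitochondrially encoded protein genes, and, under the same limits, the 12 called genes of largest change in each direction. The fit was tested on simulated data. Alternatives were DESeq2 version 1.42.0, other normalizations, filters, counting columns and uses of the technical replicates, thinning to 10763174 counts, no kit term, left-out RNA samples and left-out mitochondrially encoded genes. The models with a left-out RNA sample had no kit term either. Python version 3.11.15 with pandas version 2.3.3, numpy version 2.4.6, scipy version 1.17.1 and matplotlib version 3.10.9 made tables and figures.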

Additional observations from a re-analysis of the deposited data

Results flagged for a closer look

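Some results moved in opposite directions with the 2 kits, with 1 RNA sample per run and kit, so the difference between kits was not tested. The values are log2 ratios of run 2 over run 1, first with RNAqueous and then with RNeasy. The medians of the lists were 0.52 and -0.061 for fibroblast and matrix genes, -0.11 and 0.094 for leukocyte genes, -0.14 and 0.13 for epidermal and epithelial genes, -0.040 and 0.26 for pancreatic genes, 0.33 and -0.0072 for AP-1 and immediate early genes, 0.17 and -0.10 for heat shock and chaperone genes, -0.031 and 0.045 for genes of the unfolded protein and amino acid response, and -0.010 and 0.049 for cell cycle genes. Among the defining markers, kdrl stood at 0.24 and -0.77, SOX9 at -0.20 and 1.34 for ENSDARG00000003293 and at -0.29 and 0.23 for ENSDARG00000043923, PRRX1 (ENSDARG00000033971) at -0.032 and 0.053, ELAVL3 at 0.44 and -0.30 and epcam at -0.54 and 0.48.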

How the results depend on the processing

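The number of genes called moved with the processing. So did the split of the calls by direction, with 72.1% higher with library totals against 38.8% in the reported model. It also turned without A_1. Called genes numbered 1006 with DESeq2 (325 higher and 681 lower in run 2), 1376 with library totals only (992 and 384), 1141 with at least 10 CPM (400 and 741), 1137 with technical replicate b only (446 and 691), 5218 with separate libraries (2221 and 2997) and 1414 with no replicate block for the kit (522 and 892). Thinning gave 303 (112 and 191). Of 4 further draws, added after the first was seen, these gave 293 (96 and 197), 822 (308 and 514), 824 (308 and 516) and 1400 (498 and 902). Without 1 RNA sample there were 331 to 4867 genes, 94 to 1825 higher and 237 to 3042 lower. The other settings stayed within 1.5 times of 2149. The weight given to the spread shared by all genes, edgeR's prior degrees of freedom, was unlimited in the reported model, 46.1 with replicate b only and 12.8 in the first thinning.

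Models with a left-out RNA sample had no kit term, and without A_1 the sample Q_1 was set against A_2 and Q_2. Of 101 called named genes, rps27.2 was the 1 whose fitted sign reversed in such models, with a range of -3.92 to 0.74 (0.74 without A_1). Within kits rps27.2 was lower in run 2 with both, at -2.31 with RNAqueous and -1.02 with RNeasy. Leaving out samples gave ranges across 0 for kdrl (-0.63 to 0.089), SOX9 (-0.019 to 1.16 for ENSDARG00000003293, -0.19 to 0.11 for ENSDARG00000043923), PRRX1 (ENSDARG00000033971, -0.13 to 0.16), ELAVL3 (-0.52 to 0.67), epcam (-0.57 to 0.49) and JUN (-0.15 to 0.30), none of which was called in the reported model. Signs also turned with library totals for kdrl (0.072), SOX9 (ENSDARG00000043923, 0.31), PRRX1 (ENSDARG00000042027, 0.26) and epcam (0.32). This SOX9 copy stood at 0.0089 without a filter, 0.022 with at least 10 CPM and 0.0028 from the strand columns, and epcam at 0.014 without a filter and 0.027 with at least 10 CPM. PRRX1 (ENSDARG00000033971) stood at -0.025 with relative log expression, -0.0086 from the strand columns, -0.00068 with separate libraries and -0.011 after thinning. ELAVL3 stood at -0.015 with replicate a only and -0.034 with no replicate block. The cause of these moves was not tested. With all reads as the denominator, the mitochondrial share ranged from 0.486% in A_2b to 1.99% in A_1.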
